A study of Mus musculus with 18 samples.

Results

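The liver transcriptome was compared between mice with a floxed Bckdha gene and RIP-Cre (KO, Bckdha f/f;RIP-Cre) and mice with the floxed gene alone (WT, Bckdha f/f). The 6 liver libraries, 3 KO and 3 WT, were taken by their titles from a series of 18 RNA-seq libraries that also covers inguinal fat (iWAT) and epididymal fat (eWAT). All animals were C57BL/6 mice of 12 weeks. All 6 liver libraries therefore carry the floxed allele, and the genotypes differ by the Cre transgene and by what it deletes. No library came from mice with RIP-Cre and an unfloxed gene, so an effect of the transgene itself cannot be told apart from that of the deletion. RIP-Cre is the usual name of Cre driven by the rat insulin promoter, a promoter used for pancreatic beta cells and known to be active in some neurons as well. Hepatocytes are not among the cells this promoter is used for, and no islet or brain sample was analysed here. Whether each library is a different animal is not stated in the labels; p-values here reflect the spread between libraries only, and part of it may be technical. Of 22298 gene identifiers, 11915 passed the count filter and were tested.

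The product of Bckdha, E1 alpha, is a subunit of the branched-chain ketoacid dehydrogenase, the mitochondrial complex that commits leucine, isoleucine and valine to breakdown. Liver is a main site of ketoacid oxidation and also a target of hormones that depend on the islet and the brain. One such hormone, growth hormone, acts in hepatocytes through the kinase JAK2 and the transcription factor STAT5, which switches on Cish and Socs2 as feedback inhibitors and lowers Bcl6, a repressor that can bind many of the same sites as STAT5. Growth hormone pulses also set much of the difference between male and female liver, including many cytochrome P450 and sulfotransferase genes. Fasting and feeding move other programmes in the same cells, among them fatty acid oxidation under the nuclear receptor PPAR-alpha and fat and sterol synthesis under SREBP factors.

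Total expected counts ranged from 18629302 to 25969223 per liver library, and 14389 to 14667 genes had reads. All levels below are CPM, the usual scaling of counts to a common library size, and each fold change is log2 of KO over WT with its standard error (SE). Alb, the albumin gene, took the most counts in every liver library, 7.24% to 8.17%, and all 10 hepatocyte markers passed the filter. Of these, 1 was higher and 9 lower in KO livers, with a median log2 fold change of -0.25 (-0.15 without WT replicate 2). No marker of skeletal muscle or of pancreatic islets passed, out of 8 in each list, and 5 and 6 of these were at 0 in every liver library. WT replicate 2 stood apart from the other 5. Its scaling factor was 0.850 against 1.0001 to 1.067, and its correlation with the others across genes was 0.982 to 0.986, against 0.991 to 0.995 among the rest. The summed level of the 12 sinusoidal endothelial markers was 377, 336 and 320.2 CPM in KO livers and 360.4, 122 and 318 CPM in WT livers, with WT replicate 2 lowest. Neutrophil markers summed to 1.92, 2.39 and 7.05 CPM in KO livers and to 35.7, 35.7 and 1.504 CPM in WT livers, so that WT replicates 1 and 2 were high and WT replicate 3 was not. The 7 erythroid markers in the files summed to 524, 1184 and 695 CPM in KO livers and 1314, 1956 and 1396 CPM in WT livers, with every KO library below every WT library. Epididymal transcripts, which liver cells are not known to make, summed to 29.1, 0.462 and 26.5 CPM in KO livers and to 27.4, 26.9 and 20.7 CPM in WT livers. The part of these markers in the results below was not tested. In tissue RNA, fewer cells of a type and less RNA per cell cannot be told apart.

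Bckdha itself (chromosome 7, 25629946 to 25658981, minus strand) stood at 241, 203 and 179 CPM in KO livers and at 194, 232 and 232 CPM in WT livers. The libraries of both groups overlapped, and the log2 fold change was -0.08 ± 0.18 (edgeR quasi-likelihood adjusted p = 0.953). This sign was not stable, since it turned positive without KO replicate 3 and with the deposited FPKM values. Bckdha was also among the genes of the branched-chain amino acid breakdown list, of which 12 of 29 were higher and 17 lower in KO livers, with a median log2 fold change of -0.04, a sign that turned in 5 of 16 alternatives. The median of all 11915 genes was -0.0021, and 49.7% of them were higher in KO livers. Acat1, an enzyme of isoleucine breakdown and of ketone metabolism, was the member of lowest p. It stood at 301, 358 and 335 CPM in KO livers against 226, 256 and 225 CPM in WT livers (log2 fold change 0.49 ± 0.16, edgeR adjusted p = 0.635).

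In KO livers 4 genes rose and 2 fell at an adjusted p under 0.05. These are 0.0336% and 0.0168% of the genes tested. Bcl6, Hspa1a, Rgs16 and Hspa1b rose, and Cish and Cyp26a1 fell, each with every KO library beyond every WT library. Groups were apart in this sense for 712 genes that were higher in KO livers (5.98%) and 831 that were lower (6.97%). Without adjustment 720 genes had a p under 0.05, 342 higher and 378 lower, and 231 genes differed by at least 1 on the log2 scale. DESeq2 called 63 genes, and leaving out WT replicate 2 gave 25, all of the 6 among them in both cases. Leaving out KO replicate 1 left no call at an adjusted p under 0.05, with 831 genes at an unadjusted p under 0.05.

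**Figure D1:**
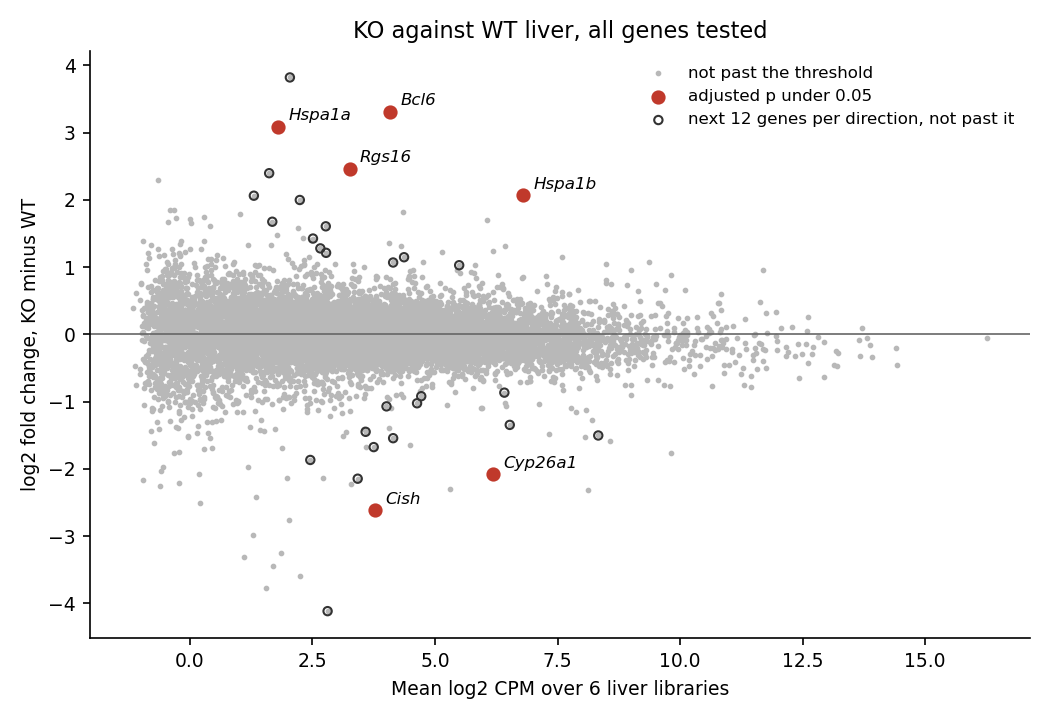
Mean log2 CPM over the 6 liver libraries (horizontal axis) against the log2 fold change of KO over WT (vertical axis) for all 11915 genes tested. Filled red points are the 6 genes past the threshold, from Bcl6 at 3.31 to Cish at -2.62, and open circles are the next 12 genes per direction, whose adjusted p was above 0.05.

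Cish and Bcl6 were the genes of lowest p, and both belong to the growth hormone pathway. Cish (chromosome 9, 107296026 to 107302784, plus strand), a feedback inhibitor that binds activated cytokine receptors, stood at 4.78, 3.85 and 2.82 CPM in KO livers and at 23.6, 19.7 and 27.1 CPM in WT livers. The highest KO library thus lay well below the lowest WT library. Cish averaged 3.82 ± 0.983 CPM in KO livers and 23.5 ± 3.71 CPM in WT livers (SD, n = 3 each), and it fell by 2.62 on the log2 scale (SE 0.24, edgeR adjusted p = 0.0109). Bcl6 (chromosome 16, 23965052 to 23988852, minus strand), a zinc finger repressor, stood at 31.7, 36.4 and 23.8 CPM in KO livers and at 4.52, 2.03 and 2.58 CPM in WT livers. No KO library came near the WT range. Its means were 30.6 ± 6.36 CPM in KO livers and 3.05 ± 1.31 CPM in WT livers (SD, n = 3 each), a rise of 3.31 ± 0.32 on the log2 scale (edgeR adjusted p = 0.0109). Per length, in the deposited FPKM values, Bcl6 averaged 8.97 in KO livers and 0.85 in WT livers, and Cish 1.39 in KO livers and 8.04 in WT livers, so the order of these genes by level was opposite in the genotypes. Bcl6 kept its call in 13 of 16 alternatives and Cish in 12. Both calls ended without KO replicate 1 (adjusted p = 0.154 each), and that of Cish also without KO replicate 2 (adjusted p = 0.0806).

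The promoters of these genes are printed because STAT factors are the best known regulators of both. The sequences are those of RefSeq on GRCm38.p6 (the mm10 build), 250 bases before and 50 bases after an annotated start, read 5′ to 3′ on the gene's strand. Capitals mark matches to TTCNNNGAA, the core to which STAT5 dimers bind, a motif that reads the same on both strands. In the Cish sequence the first and second match begin 1 and 12 bases into the transcript, and the stretch that joins them also reads as GAANNTTC, the heat shock motif used below.

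Cish, chr9:107296409-107296708, plus strand: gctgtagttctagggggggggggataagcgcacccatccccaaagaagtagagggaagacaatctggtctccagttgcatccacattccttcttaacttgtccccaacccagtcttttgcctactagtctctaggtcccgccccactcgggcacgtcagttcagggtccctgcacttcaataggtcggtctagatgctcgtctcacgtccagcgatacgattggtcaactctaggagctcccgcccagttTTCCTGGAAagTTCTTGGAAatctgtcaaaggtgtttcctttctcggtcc

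Bcl6 has a pair of annotated starts in this table, and both are given.

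Bcl6 inner start, chr16:23981234-23981533, minus strand: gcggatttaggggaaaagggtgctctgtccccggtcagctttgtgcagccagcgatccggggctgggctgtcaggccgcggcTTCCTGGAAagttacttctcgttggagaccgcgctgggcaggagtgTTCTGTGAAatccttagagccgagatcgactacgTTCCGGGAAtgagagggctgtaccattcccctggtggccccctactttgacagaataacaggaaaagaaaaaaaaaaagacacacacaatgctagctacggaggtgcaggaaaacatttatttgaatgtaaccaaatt

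Bcl6 outer start, chr16:23988803-23989102, minus strand: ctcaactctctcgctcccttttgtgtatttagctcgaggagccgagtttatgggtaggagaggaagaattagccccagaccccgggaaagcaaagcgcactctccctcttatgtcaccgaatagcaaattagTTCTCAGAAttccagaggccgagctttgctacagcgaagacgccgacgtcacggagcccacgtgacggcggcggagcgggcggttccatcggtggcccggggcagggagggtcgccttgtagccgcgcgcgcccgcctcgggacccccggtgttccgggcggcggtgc

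The inner Bcl6 start has 3 matches, which begin 168, 122 and 88 bases before it, and the outer start has 1, at 118 bases before it. Of 32851 mouse promoters of this length, 8.30% hold at least 1 match and 0.457% hold at least 2. Of the 16 tested members of the growth hormone list with a promoter in the table, 6 hold a match: Bcl6, Cish, Igfals, Nr0b2, Prlr and Socs3. That is a count of genes with a match in any promoter, a measure unlike the share of promoters. A match is a stretch of letters, and binding was not measured here.

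**Figure D2:**
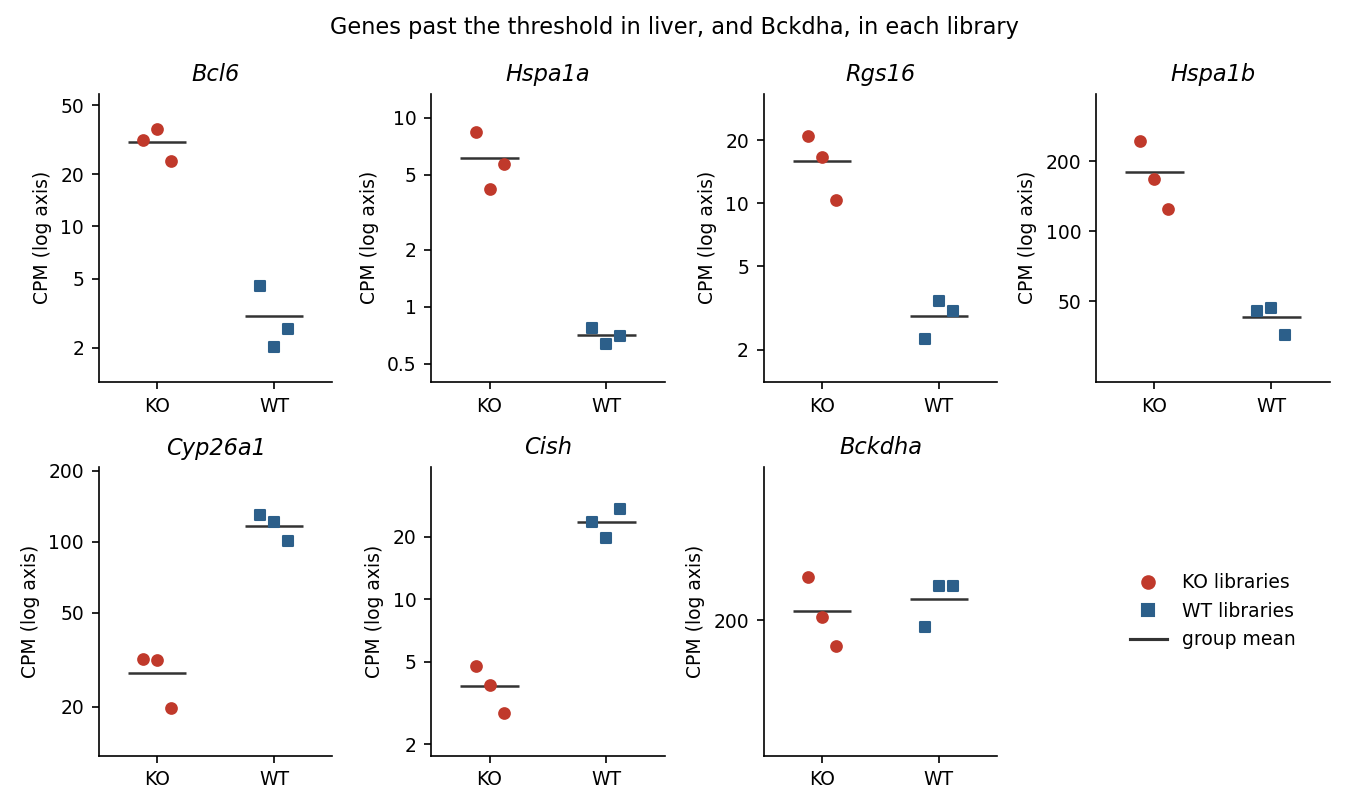
CPM on a log axis in each KO library (circles, left) and each WT library (squares, right), with a bar at the group mean, for the 6 genes past the threshold and for Bckdha. KO and WT libraries overlap in Bckdha only: Bcl6 reaches 23.8 to 36.4 CPM in KO livers against 2.03 to 4.52 CPM in WT livers, and Cish 2.82 to 4.78 CPM against 19.7 to 27.1 CPM.

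Of the 18 tested genes of growth hormone and STAT5 signalling, 3 were higher and 15 lower in KO livers, Bcl6 and Cish among them, with a median log2 fold change of -0.55. With the deposited FPKM values 6 were higher and 12 lower, with a median of -0.28. In 8 of the lower genes and 1 of the higher genes the groups were apart. Over all genes tested, 6.97% were apart and lower and 5.98% apart and higher. Socs2, a suppressor of growth hormone receptor signalling, stood at 1.87, 1.69 and 1.46 CPM in KO livers and 8.22, 2.96 and 5.07 CPM in WT livers. Its log2 fold change of -1.70 ± 0.37 did not pass (edgeR adjusted p = 0.425), although it passed with DESeq2 and without WT replicate 2 (adjusted p = 0.0265). Socs3 (-0.88 ± 0.23) and Onecut1, a liver transcription factor that growth hormone induces (-1.51 ± 0.46), had adjusted p of 0.507 and 0.586. Onecut1 was high in WT replicates 1 and 3, at 18.8 and 14.8 CPM, and at 4.71 CPM in WT replicate 2, within the KO range of 2.87 to 5.74 CPM. In the insulin-like growth factor system, Igf1, the main endocrine target of growth hormone, stood at 129, 168 and 131 CPM in KO livers and 185, 362 and 177 CPM in WT livers. Igfals, which holds the growth factor in its serum complex, stood at 129, 83.1 and 56.6 CPM in KO livers and 156, 135 and 151 CPM in WT livers. In both genes the groups were apart, and neither passed (log2 fold changes of -0.76 ± 0.28 and -0.72 ± 0.27, edgeR adjusted p = 0.707 and 0.724).

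Genes known to differ between male and female mouse liver went in both directions within each list. The labels do not state the sex of the animals, and the series includes epididymal fat. Of 28 male-biased genes tested, 13 were higher and 15 lower in KO livers (median -0.06, a sign that turned in 8 of 16 alternatives). Of 38 female-biased genes 26 passed the count filter, and of these 15 were higher and 11 lower (median 0.35). That median was positive in all 16 alternatives and ran from 0.16 to 0.56, both ends with FPKM values. It was 0.16 without KO replicate 2, 0.23 without WT replicate 2 and 0.19 without WT replicate 3. No member of either list passed the threshold. The spread within the female-biased list was wide. Sult1e1, estrogen sulfotransferase, stood at 3.60, 7.36 and 11.4 CPM in KO livers and 0.344, 1.16 and 0.141 CPM in WT livers, with the groups apart (log2 fold change 3.82 ± 0.65, edgeR adjusted p = 0.153). Cyp2c69 went the other way, with 1.08, 0.886 and 0.252 CPM in KO livers and 27.8, 3.43 and 7.75 CPM in WT livers (-4.12 ± 0.79, adjusted p = 0.257). Cyp2c40, of the same P450 cluster, had 3.50, 5.85 and 2.32 CPM in KO livers and 27.4, 9.94 and 14.7 CPM in WT livers (-2.15 ± 0.43, adjusted p = 0.308). Genes of this cluster are near-copies whose reads the counting could split, so their single values are uncertain. Elovl3, a fatty acid elongase of male liver, was higher in every KO library, at 30.5, 35.1 and 18.5 CPM against 6.80, 12.4 and 14.6 CPM in WT livers (1.32 ± 0.32, adjusted p = 0.485).

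Hspa1a and Hspa1b, the stress-inducible HSP70 chaperones, both rose. Hspa1b (chromosome 17, 34956436 to 34959238, minus strand) stood at 245, 168 and 125 CPM in KO livers and at 45.5, 46.8 and 35.9 CPM in WT livers. The KO libraries were spread widely, but all lay above the WT libraries. Its log2 fold change was 2.07 ± 0.26 (edgeR adjusted p = 0.0358). Hspa1a (chromosome 17, 34969190 to 34972156, minus strand) had fewer reads, at 8.38, 4.20 and 5.69 CPM in KO livers and 0.775, 0.639 and 0.705 CPM in WT livers. It rose by 3.09 ± 0.34 on the log2 scale (adjusted p = 0.0185). These genes are neighbours and near-copies: 58.8% of the 50-base windows of the Hspa1a transcript occur unchanged in that of Hspa1b. The sources used here do not say how the counting shared such reads, so the split between the pair is uncertain. In deposited FPKM, Hspa1b averaged 66.2 in KO livers and 14.7 in WT livers, and Hspa1a averaged 2.14 in KO livers and 0.23 in WT livers. The Hspa1a call ended without KO replicate 1, KO replicate 3 or WT replicate 1 (adjusted p = 0.154, 0.0747 and 0.139). The Hspa1b call ended without KO replicate 1, KO replicate 2, WT replicate 1 or WT replicate 3 (adjusted p = 0.154, 0.130, 0.215 and 0.0877).

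The promoters of the pair differ at 4 of 300 positions and are shown for that likeness. Capitals mark GAANNTTC, a pair of facing heat shock factor units that reads the same on both strands, which begins 104 bases before the start in each. The same letters occur in 7.86% of the 32851 promoters.

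Hspa1a, chr17:34972107-34972406, minus strand: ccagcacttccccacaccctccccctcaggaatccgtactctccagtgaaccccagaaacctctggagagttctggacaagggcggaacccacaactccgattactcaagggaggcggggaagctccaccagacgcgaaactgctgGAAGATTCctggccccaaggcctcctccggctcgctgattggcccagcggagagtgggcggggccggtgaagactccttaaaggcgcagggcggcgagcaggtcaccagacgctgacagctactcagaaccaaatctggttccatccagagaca

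Hspa1b, chr17:34959189-34959488, minus strand: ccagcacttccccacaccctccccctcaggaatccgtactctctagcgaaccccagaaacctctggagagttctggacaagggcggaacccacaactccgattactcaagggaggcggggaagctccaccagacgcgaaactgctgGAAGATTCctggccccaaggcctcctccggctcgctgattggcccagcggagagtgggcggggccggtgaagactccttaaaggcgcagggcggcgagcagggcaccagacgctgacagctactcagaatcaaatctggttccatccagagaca

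The heat shock list as a whole moved less. Of 30 genes tested, Hspa1a and Hspa1b included, 21 were higher and 9 lower in KO livers. The median log2 fold change was 0.11, and in 6 of the higher and 1 of the lower genes the groups were apart. Among all genes tested, 5.98% were apart and higher and 6.97% apart and lower. Without WT replicate 3 the list held 17 higher and 13 lower genes with a median of 0.043, and without KO replicate 3 the median was 0.050. Bag3, an HSP70 co-chaperone induced by heat shock factor, was the next by p at 124, 93.4 and 85.8 CPM in KO livers and 65.8, 47.8 and 50.8 CPM in WT livers (0.88 ± 0.20, edgeR adjusted p = 0.433). Dnajb1, another HSP70 partner, had 80.1, 62.2 and 71.5 CPM in KO livers and 51.9, 56.6 and 41.3 CPM in WT livers (0.51 ± 0.18, adjusted p = 0.666). Both were apart and neither passed. Of the 24 members with a promoter in the table, 13 hold GAANNTTC in at least 1 promoter. This counts genes, not promoters. Genes of the unfolded protein response of the endoplasmic reticulum leaned to the other side, with 6 of 23 higher, 17 lower and a median of -0.23, which was -0.10 without WT replicate 1, -0.15 without WT replicate 2 and -0.09 with FPKM. The transcription factor Xbp1, central to that response, had a narrow spread of 224, 225 and 213 CPM in KO livers and 304, 323 and 302 CPM in WT livers (-0.49 ± 0.15, adjusted p = 0.596).

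Immediate early genes, which are transcribed within minutes of a stimulus, had a median of 0.65. Of 21 tested, 16 were higher and 5 lower in KO livers, 8 and 3 of them with groups apart, and none passed. The shares apart among all genes were 5.98% higher and 6.97% lower. Fos, a subunit of the AP-1 factor, stood at 5.18, 3.04 and 3.27 CPM in KO livers and at 0.861, 0.988 and 0.893 CPM in WT livers (2.06 ± 0.32, edgeR adjusted p = 0.123). Its partner Jun stood at 27.0, 35.7 and 22.2 CPM in KO livers and 13.6, 12.5 and 12.3 CPM in WT livers (1.15 ± 0.21, adjusted p = 0.205). Egr1, a zinc finger factor induced by growth factors, had 9.07, 6.51 and 6.64 CPM in KO livers and 2.58, 1.92 and 1.03 CPM in WT livers (2.0 ± 0.34, adjusted p = 0.153). In all of these the lowest KO library was above the highest WT library. DESeq2 called Fos, Jun and Egr1. Klf10 (0.86 ± 0.23) and Klf6 (0.70 ± 0.21) were apart in the same direction, with adjusted p of 0.507 and 0.582. The median of the list was positive in all 16 alternatives and lowest with FPKM, at 0.29.

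Targets of the Hippo pathway, which restrains the coactivators YAP and TAZ, were led by a pair of secreted matricellular proteins. Ccn2, also known as CTGF, stood at 8.58, 9.78 and 12.0 CPM in KO livers and at 3.01, 3.49 and 3.48 CPM in WT livers, the higher gene closest to the threshold (1.61 ± 0.22, edgeR adjusted p = 0.0623). It passed in 5 of the 16 alternatives, DESeq2 and the fit without WT replicate 2 (adjusted p = 0.0225) included. Ccn1, or CYR61, had 8.88, 8.97 and 6.59 CPM in KO livers and 3.66, 2.79 and 2.63 CPM in WT livers (1.43 ± 0.24, adjusted p = 0.153). The list as a whole had 16 of 24 members higher and 8 lower in KO livers and a median of 0.19, which was 0.030 without WT replicate 2 and 0.34 without WT replicate 1. Ajuba, a LIM protein that inhibits the kinase LATS, was lower in every KO library (-1.01 ± 0.25, adjusted p = 0.485), and Lats2, one of the kinases, was higher (0.60 ± 0.20, adjusted p = 0.635). Stellate and fibroblast markers, cells that also express Ccn2, were higher in KO livers for 10 of 13 genes with a median of 0.37. They summed to 404, 298 and 413 CPM in KO livers and 399.6, 207 and 342 CPM in WT livers, and 12 of 12 endothelial markers were higher with a median of 0.39. Without WT replicate 2 those medians were 0.088 and 0.093. The stellate median was 0.040 without KO replicate 3, 0.25 without KO replicate 1 and 0.17 without WT replicate 3, and the endothelial median was 0.67 without WT replicate 1. The part of these cells in the Ccn1 and Ccn2 values was not tested.

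Cyp26a1, the P450 that breaks down retinoic acid, was the other gene that fell, with 15.98 FPKM in KO livers and 63.1 FPKM in WT livers in the deposited values. It lies on the plus strand of chromosome 19 at 37697798 to 37701536. It stood at 31.7, 31.5 and 19.8 CPM in KO livers and at 130, 121 and 100.5 CPM in WT livers, with a wide gap between the groups. The means were 27.7 ± 6.81 CPM in KO livers and 117 ± 15.1 CPM in WT livers (SD, n = 3 each), and the gene fell by 2.08 on the log2 scale (SE 0.22, edgeR adjusted p = 0.0185). The call ended in 4 of the 6 fits that leave out 1 library: without KO replicate 1 (adjusted p = 0.154), KO replicate 2 (0.0892), KO replicate 3 (0.0533) and WT replicate 1 (0.108). Its promoter is printed because retinoic acid receptors act on it through a DR5 element, a direct repeat of the receptor half-site with a spacer, which capitals mark from 32 bases before the start.

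Cyp26a1, chr19:37697558-37697857, plus strand: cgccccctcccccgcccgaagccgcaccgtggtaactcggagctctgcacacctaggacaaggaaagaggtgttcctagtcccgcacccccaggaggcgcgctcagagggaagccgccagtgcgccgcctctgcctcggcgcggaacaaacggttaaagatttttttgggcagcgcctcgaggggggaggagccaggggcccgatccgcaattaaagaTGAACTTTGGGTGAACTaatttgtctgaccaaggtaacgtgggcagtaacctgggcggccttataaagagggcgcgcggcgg

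DR5 was found in 0.0974% of the promoters searched on both strands, 32 in all. Among 22 tested retinoid genes with a promoter in the table, Cyp26a1 and Rarb hold one, counted by gene and not by promoter. Rarb, a retinoic acid receptor that retinoic acid induces, stood at 1.38, 2.27 and 1.66 CPM in KO livers and at 6.28, 2.27 and 5.54 CPM in WT livers. WT replicate 2 matched the KO libraries, and the difference of -1.40 ± 0.40 did not pass (edgeR adjusted p = 0.538); without that library it did (-1.73, adjusted p = 0.0401). Of the 24 genes of retinoid metabolism tested, 7 were higher and 17 lower, with a median of -0.09 that turned positive with FPKM values and was -0.17 without KO replicate 1, -0.14 without KO replicate 3, -0.14 without WT replicate 1 and -0.15 without WT replicate 2. Retsat, a retinol saturase, was higher in every KO library, at 1242, 1033 and 774 CPM against 593, 639 and 704 CPM in WT livers (0.66 ± 0.21, adjusted p = 0.603). Rdh11, a retinal reductase, was lower in every KO library (-0.61 ± 0.17, adjusted p = 0.538).

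Rgs16, a GTPase-activating protein that shortens G protein signalling, was the remaining gene that rose. It lies on chromosome 1 at 153740349 to 153745468, plus strand. Its values were 21.0, 16.7 and 10.4 CPM in KO livers and 2.24, 3.43 and 3.05 CPM in WT livers, and the groups were well separated. The means were 16.001 ± 5.33 CPM in KO livers and 2.91 ± 0.609 CPM in WT livers (SD, n = 3 each), a rise of 2.47 ± 0.30 on the log2 scale (edgeR adjusted p = 0.0351). The call ended without KO replicate 1, KO replicate 2, WT replicate 1 or WT replicate 3, where the adjusted p was 0.223, 0.130, 0.215 and 0.0720. Rgs3, of the same family, went the other way at 8.63, 4.74 and 5.84 CPM in KO livers and 20.8, 15.4 and 16.1 CPM in WT livers (-1.45 ± 0.26, adjusted p = 0.171).

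Nearly all genes of fatty acid oxidation had higher values in KO livers, and none passed. Of 32 genes in the list of PPAR-alpha and its targets 31 were higher, with a median log2 fold change of 0.59. Of 33 genes of beta-oxidation and ketogenesis 31 were higher, with a median of 0.36. These lists share 10 tested members, and like all lists here they were written with earlier results of these data known. Groups were apart in 10 genes of the PPAR-alpha list and in 15 genes of beta-oxidation, all higher in KO livers. Among all genes 5.98% were apart and higher. The mean log2 CPM over the PPAR-alpha list was 7.20, 7.04 and 6.36 in KO livers and 6.29, 6.06 and 6.22 in WT livers, so KO replicate 3 lay close to the WT libraries. Acsl1, a long-chain acyl-CoA synthetase, stood at 1042, 995 and 657 CPM in KO livers and at 458, 319 and 495 CPM in WT livers (1.08 ± 0.24, edgeR adjusted p = 0.427). Crot, a peroxisomal carnitine acyltransferase, had 200.4, 363 and 233 CPM in KO livers and 135, 139.8 and 82.3 CPM in WT livers (1.16 ± 0.28, adjusted p = 0.485). Ehhadh, the peroxisomal bifunctional enzyme, had 569, 614 and 277 CPM in KO livers and 238, 206 and 261 CPM in WT livers (1.05 ± 0.28, adjusted p = 0.507). The groups were apart in each, and in Ehhadh the KO replicate 3 value exceeded the highest WT value by little. Cd36, a fatty acid transporter, had 54.2, 87.4 and 68.8 CPM in KO livers and 38.4, 44.3 and 27.8 CPM in WT livers (0.93 ± 0.23, adjusted p = 0.5). The hormone gene Fgf21, a PPAR-alpha target that liver secretes in fasting, stood at 5.33, 2.0 and 1.66 CPM in KO livers and 1.33, 0.697 and 0.517 CPM in WT livers (1.79 ± 0.54, adjusted p = 0.574). Both medians kept their sign in all 16 alternatives.

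**Figure D3:**
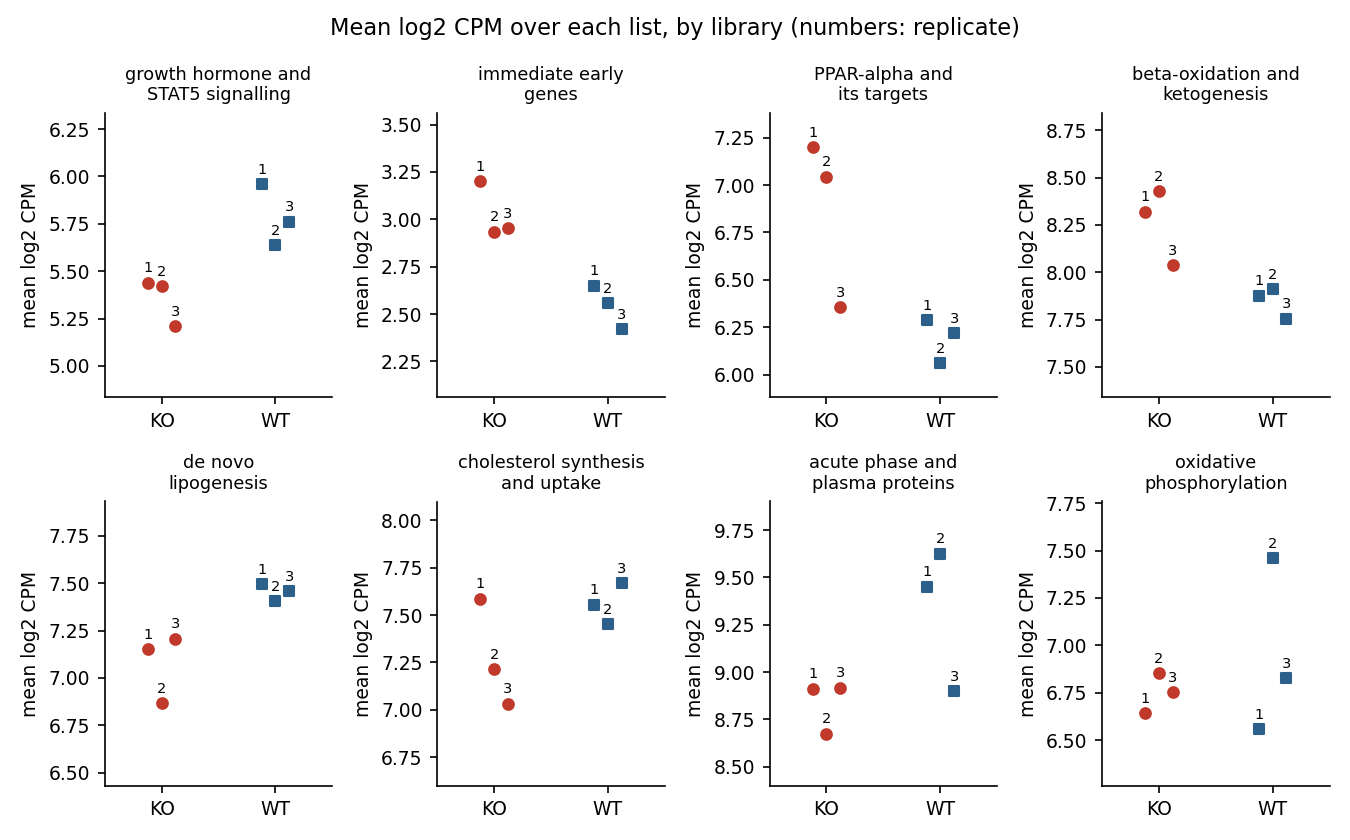
Mean log2 CPM over the tested members of 8 lists in each KO library (circles, left) and WT library (squares, right), with each point labelled by its replicate number; all panels span the same range of log2 units. The PPAR-alpha list reads 7.20, 7.04 and 6.36 in KO livers against 6.29, 6.06 and 6.22 in WT livers, and WT replicate 2 stands alone in oxidative phosphorylation at 7.46.

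Lipid synthesis leaned towards lower levels. In de novo lipogenesis 4 of 25 genes were higher and 21 lower in KO livers, with a median of -0.28 (-0.17 with FPKM) and groups apart in 7 of the lower genes. Scd1, the desaturase that makes oleate, stood at 568, 208 and 448 CPM in KO livers and at 2359, 1013 and 799.9 CPM in WT livers. The groups did not overlap, the WT libraries spanned a wide range, and the gene did not pass (-1.77 ± 0.46, edgeR adjusted p = 0.5). Aacs, which turns acetoacetate into a precursor of lipids, had 68.5, 35.0 and 65.6 CPM in KO livers and 109, 93.5 and 142 CPM in WT livers (-1.03 ± 0.27, adjusted p = 0.507). Agpat2, an acyltransferase of glycerolipid synthesis, was lower in every KO library (-0.70 ± 0.18, adjusted p = 0.5). In cholesterol synthesis and uptake 4 of 25 were higher and 21 lower, again with a median of -0.28, and 6 of the lower genes were apart. For comparison with both lists, 6.97% of all genes were apart and lower. Without KO replicate 1 the cholesterol median was -0.53. Fdps, a prenyl synthase of the sterol pathway, had 482, 279 and 287 CPM in KO livers and 514, 651 and 599 CPM in WT livers (-0.75 ± 0.24, adjusted p = 0.603). The sterol list's mean log2 CPM was 7.59, 7.22 and 7.03 in KO livers and 7.55, 7.45 and 7.67 in WT livers, with KO replicate 1 inside the WT range. Without KO replicate 3, 9 of its members were higher and 16 lower.

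Bile acid genes did not share a direction. Cyp2c70, the P450 that makes the muricholic acids of mouse bile, was the lower gene closest to the threshold. It stood at 129, 169.6 and 205 CPM in KO livers and at 516, 497 and 415 CPM in WT livers, groups that did not overlap (-1.50 ± 0.21, edgeR adjusted p = 0.0668). It passed in 5 alternatives, among them DESeq2 and the fit without WT replicate 2 (adjusted p = 0.0220). Cyp7a1, the rate-limiting enzyme of bile acid synthesis, was higher, at 151, 213 and 236 CPM in KO livers and 113, 91.2 and 124 CPM in WT livers (0.87 ± 0.21, adjusted p = 0.485). Hsd3b7, the next enzyme of that route, was higher as well (0.64 ± 0.20, adjusted p = 0.603). Of the 26 genes of the list 15 were higher and 11 lower. Outside it, Slc22a7, an organic anion transporter of hepatocytes, had 6.61, 7.4 and 5.08 CPM in KO livers and 27.5, 21.1 and 12.6 CPM in WT livers (-1.68 ± 0.30, adjusted p = 0.171).

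Sulfation genes included several near-threshold members. Papss1, which makes the sulfate donor PAPS, stood at 9.62, 10.1 and 11.3 CPM in KO livers and at 22.6, 22.8 and 19.8 CPM in WT livers, a narrow spread in both groups (-1.07 ± 0.17, edgeR adjusted p = 0.153). The sulfotransferase gene Sult5a1 had 1.87, 2.85 and 2.21 CPM in KO livers and 10.8, 8.37 and 6.25 CPM in WT livers (-1.87 ± 0.28, adjusted p = 0.112). Sult1e1, described above, was higher. The glucuronosyltransferase Ugt1a5 was lower, at 55.3, 57.8 and 42.8 CPM in KO livers and 184, 103 and 109 CPM in WT livers (-1.35 ± 0.25, adjusted p = 0.227), and its exons are shared in part with the other Ugt1a genes, so its value is uncertain. Over the 24 tested genes of sulfation and glucuronidation 14 were higher and 10 lower, with a median of 0.04 that turned without KO replicate 3. The xenobiotic P450 list was balanced too, with 14 of 29 higher and a median of -0.06 that turned in 5 of 16 alternatives.

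Acute phase and plasma proteins were lower in KO livers for 27 of 31 genes, with a median of -0.45 (-0.30 without WT replicate 2). The median stayed between -0.49 and -0.30 in all 16 alternatives. In 7 of the lower genes and 1 of the higher genes the groups were apart, against 6.97% and 5.98% of all genes. Itih3 and Apcs were lower in every KO library (-0.76 ± 0.24 and -1.48 ± 0.38, edgeR adjusted p = 0.603 and 0.5). Other members followed single WT libraries. Orm3, an acute phase orosomucoid, stood at 2.27, 2.47 and 2.47 CPM in KO livers and at 12.2, 16.2 and 3.57 CPM in WT livers (-2.14 ± 0.47, edgeR adjusted p = 0.425). Saa2, serum amyloid A, stood at 135, 38.3 and 105 CPM in KO livers and at 701, 616 and 71.6 CPM in WT livers (-2.32 ± 0.74, adjusted p = 0.603). Both were high in WT replicates 1 and 2 and low in WT replicate 3, the same libraries that were high and low in neutrophil markers, of which 5 of 5 tested were lower with a median of -2.75. Averaged over the list, log2 CPM was 8.91, 8.68 and 8.92 in KO livers and 9.45, 9.63 and 8.90 in WT livers. Without WT replicate 3, Orm3 and its paralog Orm2 passed, together with the neutrophil genes Ngp, S100a8 and Prtn3, among 11 calls. Orosomucoid and serum amyloid genes are near-copies, so their single values are uncertain. Outside the list, the interleukin gene Il1a was higher in KO livers, at 4.59, 5.62 and 3.93 CPM against 2.02, 1.39 and 0.987 CPM in WT livers (1.68 ± 0.32, adjusted p = 0.257).

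In amino acid metabolism the gene of lowest p was Asns, asparagine synthetase and a target of the amino acid response factor ATF4. It stood at 3.11, 0.924 and 6.34 CPM in KO livers and at 14.7, 12.5 and 20.5 CPM in WT livers, with the groups apart (-2.22 ± 0.53, edgeR adjusted p = 0.480). Other genes of that response were higher: Atf3 by 0.74 ± 0.24 (adjusted p = 0.603) and Ddit3, the factor CHOP, by 0.83 ± 0.30 (adjusted p = 0.674). Over the list, 6 of 22 were higher and 16 lower with a median of -0.20, which was -0.03 with FPKM. Of 34 genes of the urea cycle and amino acid breakdown 7 were higher and 27 lower, with a median of -0.23. Without WT replicate 3 the split was 11 to 23 and the median -0.061, and with FPKM the median was -0.09. Ass1, which makes argininosuccinate, stood at 2058, 1796 and 1771 CPM in KO livers and at 1940, 2982 and 4581 CPM in WT livers, a WT range that reached into that of KO (-0.76 ± 0.29, adjusted p = 0.735). Tdo2, the first enzyme of tryptophan breakdown, was higher, at 1044, 1598 and 1419 CPM in KO livers and 642, 937 and 991 CPM in WT livers (0.66 ± 0.24, adjusted p = 0.674).

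Clock genes had 13 of 21 members higher in KO livers and 8 lower, with a median of 0.12 and none past the threshold. Without KO replicate 3 the split was 11 to 10 and the median 0.0024, and without WT replicate 2 the median was 0.052. Nfil3, a repressor that opposes the PAR factors of the clock output, stood at 12.8, 9.86 and 10.2 CPM in KO livers and at 30.9, 17.3 and 22.1 CPM in WT livers (-1.10 ± 0.24, edgeR adjusted p = 0.425). It was apart, as was Cry1 (-0.52 ± 0.18, adjusted p = 0.665). The sources used here do not give the hour at which tissue was taken.

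No gene of glucose metabolism passed the threshold. In gluconeogenesis and glycogen 12 of 23 genes were higher, 11 lower, and no member had groups apart. Insulin signalling and insulin-regulated genes had 18 of 30 higher and a median of 0.05 that turned without WT replicate 2. Within that list Igfbp1, which insulin represses in liver, had 22.7, 27.3 and 35.4 CPM in KO livers and 19.9, 11.1 and 16.3 CPM in WT livers (0.85 ± 0.25, edgeR adjusted p = 0.574). Enho, the gene of the secreted peptide adropin, was lower in every KO library (-0.90 ± 0.22, adjusted p = 0.485). Glycolysis genes were lower for 18 of 25, with a median of -0.15. Of these 25, the groups were apart in 7 of the lower genes and 1 of the higher genes. Over all genes the shares were 6.97% lower and 5.98% higher. Gpi1, which interconverts glucose and fructose phosphates, stood at 233, 218 and 241 CPM in KO livers and at 301, 364 and 306 CPM in WT livers (-0.49 ± 0.16, adjusted p = 0.635). Gapdh, Pgam1, Eno1, Aldoa, Pdk1 and Pgk1 were apart on the same side, with log2 fold changes of -0.46 to -0.25. The median was -0.015 without KO replicate 2, where the split was 10 to 15, and -0.24 to -0.26 without KO replicate 1, KO replicate 3 or WT replicate 2. With FPKM it was -0.015.

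Of 48 nuclear genes of oxidative phosphorylation 46 were lower in KO livers, with a median of -0.27. The groups were apart in 1 of the lower genes, and 6.97% of all genes were apart and lower. Mean log2 CPM over the list was 6.64, 6.85 and 6.75 in KO livers and 6.56, 7.46 and 6.83 in WT livers, with WT replicate 2 far above the rest. Without that library 26 were higher and 22 lower, and the median was 0.0067, against -0.47 without WT replicate 1 and -0.10 with FPKM. Uqcrq, a subunit of complex III, shows it at 194, 198 and 191 CPM in KO livers and 180, 438 and 206 CPM in WT livers. The endothelial, stellate and Hippo medians above, which shrank without the same library, share this dependence, whereas the PPAR-alpha median was 0.61 without it.

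**Figure D4:**
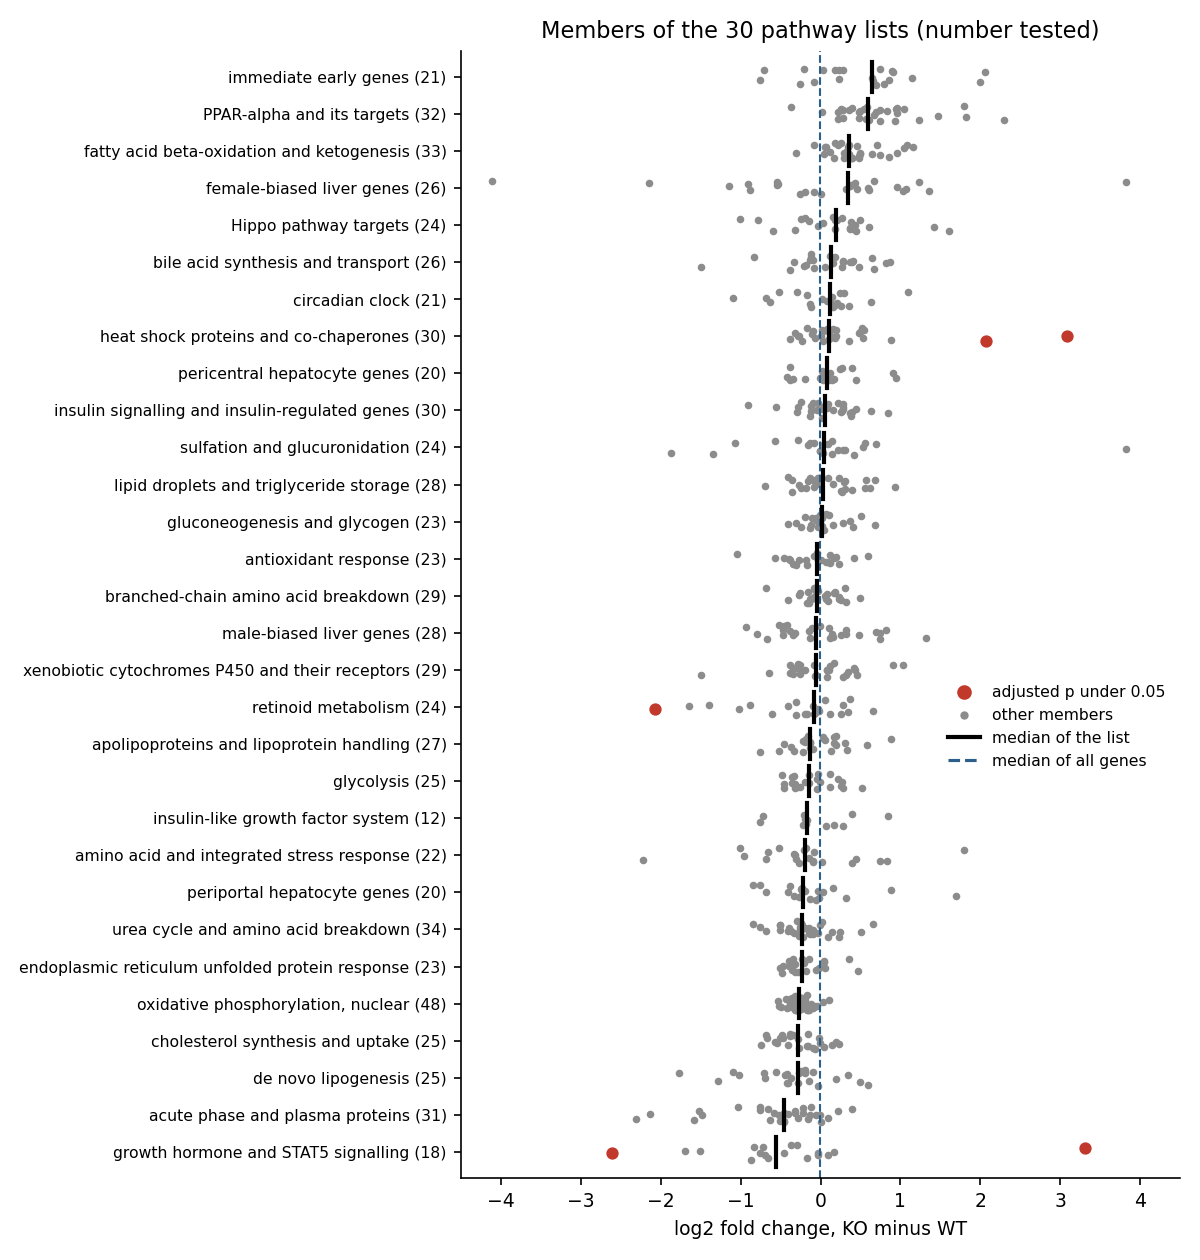
Log2 fold changes of KO over WT (horizontal axis) for the tested members of the 30 pathway lists (number in parentheses), ordered by their median (black bar), with the median of all genes as a dashed line and genes past the threshold as larger red points. In this fit immediate early genes and the PPAR-alpha list lie at the top, with medians of 0.65 and 0.59. Growth hormone and STAT5 signalling lies at the bottom, with -0.55. That order changed in other fits, and with FPKM these medians were 0.29, 0.64 and -0.28.

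The remaining lists lay near the median of all genes or held members in both directions. Pericentral hepatocyte genes had 14 of 20 higher (median 0.08) and periportal ones 5 of 20 higher (median -0.22). The periportal median was -0.12 without WT replicate 2 and -0.13 without WT replicate 3, and the pericentral median was 0.034 without KO replicate 1 and 0.040 without WT replicate 2. Among the periportal ones Hsd17b6, a steroid dehydrogenase, was higher in every KO library, at 87.9, 157 and 62.1 CPM against 20.3, 20.6 and 53.7 CPM in WT livers (1.70 ± 0.44, edgeR adjusted p = 0.5). Lipid droplet genes had 14 of 28 higher, apolipoproteins 12 of 27, the insulin-like growth factor system 5 of 12 and antioxidant genes 10 of 23. Outside the lists, Cdkn1a, the cell cycle inhibitor p21, stood at 10.1, 6.78 and 9.66 CPM in KO livers and 4.69, 3.31 and 2.87 CPM in WT livers (1.28 ± 0.27, adjusted p = 0.357). Dtx3l, an E3 ubiquitin ligase, had 58.6, 68.4 and 54.0 CPM in KO livers and 33.1, 26.4 and 29.2 CPM in WT livers (1.03 ± 0.17, adjusted p = 0.153). Foxa2, a liver transcription factor, stood at 18.3, 16.4 and 14.2 CPM in KO livers and at 31.4, 31.8 and 36.3 CPM in WT livers (-1.02 ± 0.17, adjusted p = 0.153). Dact1, Jade1, Slc46a3, Tgm1 and Phlda1 completed the near-threshold genes, with log2 fold changes of 1.21, 1.07, -0.87, -1.54 and -0.92 and adjusted p of 0.272 to 0.379, 0.171 for Slc46a3 alone. Without WT replicate 2, 19 genes joined the 6 at an adjusted p under 0.05; these included the lower genes Onecut1, Socs2, Nfil3, Foxa2, Papss1 and Rarb and the higher genes Ccn2, Sult1e1, Apoa4, Dtx3l and the splicing factors Srsf7 and Tra2b.

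The 6 genes were then set beside their values in fat of the same genotypes. Titles share replicate numbers across tissues, and the labels do not state whether liver and fat came from the same mice. The tests of a difference between tissues treat all libraries as independent, and fat values may not be independent of those in liver. No gene passed in either depot (0 of 14226 in iWAT and 0 of 14657 in eWAT by edgeR). In eWAT, WT replicate 2 stood apart: its most abundant gene was Gpx5, a gene of the epididymis, at 4.39% of its counts. WT replicate 3 of eWAT differed as well, with 15.5% of its counts from the mitochondrial genome against 3.35% to 5.97% in the other eWAT libraries. Bcl6 stood at 113, 82.6 and 82.4 CPM in KO iWAT and 61.4, 17.7 and 25.6 CPM in WT iWAT, and at 63.4, 106 and 86.4 CPM in KO eWAT and 18.7, 9.78 and 21.2 CPM in WT eWAT. The KO libraries were above the WT libraries in both depots, as in liver, with log2 fold changes of 1.41 ± 0.48 and 2.36 ± 0.37 (edgeR adjusted p = 1.0 and 0.706). Cish stood at 6.92, 8.0 and 8.30 CPM in KO iWAT and 24.4, 64.8 and 56.7 CPM in WT iWAT. In eWAT the groups overlapped, at 5.61 to 14.7 CPM in KO and 8.47 to 70.4 CPM in WT. The 8.47 CPM was that of WT replicate 2, and the other WT eWAT libraries had 54.9 and 70.4 CPM. Hspa1a and Hspa1b leaned higher in KO in both depots, with KO and WT libraries overlapping. Their log2 fold changes were 1.49 ± 0.54 and 1.31 ± 0.43 in iWAT and 1.41 ± 0.81 and 0.86 ± 0.66 in eWAT. Rgs16 did not share the liver direction in iWAT (-0.59 ± 0.26) and was at 0.11 ± 1.02 in eWAT. Cyp26a1 did not pass the count filter in iWAT and was under 1 CPM in every eWAT library. Tests of the difference between the genotype effects, liver minus iWAT and liver minus eWAT, called 0 of 14673 and 0 of 14984 genes (0% each; limma-voom called 0 in both), with 705 and 794 at an unadjusted p under 0.05. Rgs16 had the lowest p of the 6 genes in the first, a difference of 3.05 ± 0.42 (edgeR adjusted p = 0.175), and Cish a difference of 0.02 ± 0.46 (adjusted p = 1.0). In the second the adjusted p of the 6 genes ranged from 0.866 to 0.941, and 9 genes passed without eWAT WT replicate 2 and 4 without eWAT KO replicate 2. A p above the threshold does not show that liver and fat respond alike.

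**Figure D5:**
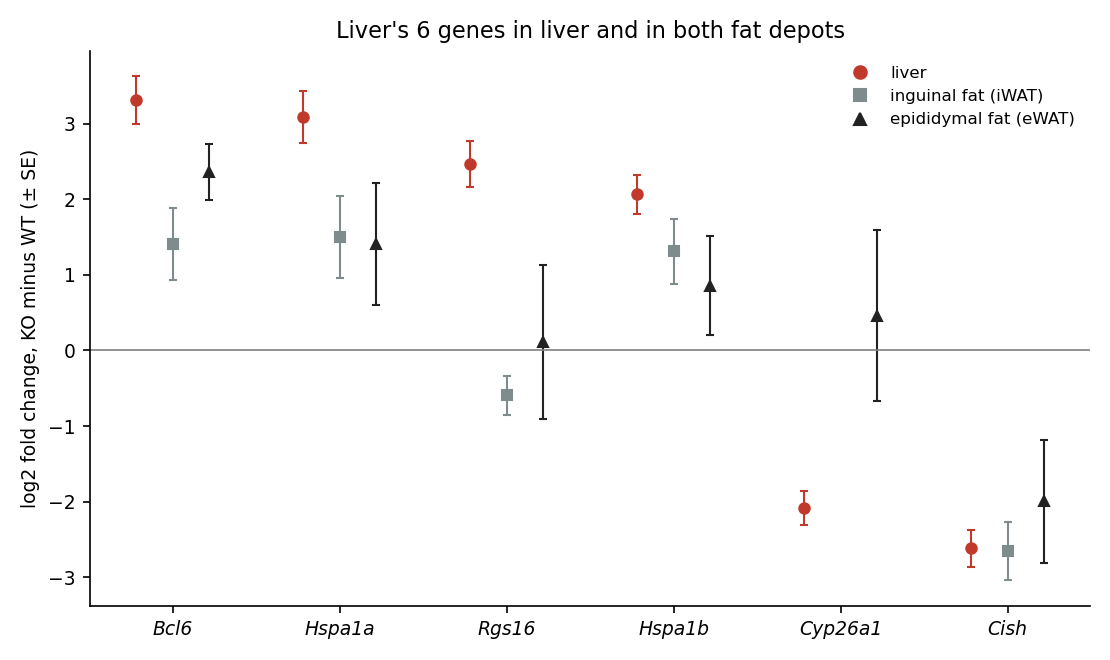
Log2 fold change of KO over WT with its SE for the 6 genes in liver (circles), iWAT (squares) and eWAT (triangles). Bcl6 is positive and Cish negative in all 3 tissues, whereas Rgs16 is 2.47 in liver and -0.59 in iWAT; Cyp26a1 has no iWAT point because it did not pass the count filter there.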

How the data were processed

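Liver RNA was isolated with Trizol and selected on oligo(dT) beads before random-primed Illumina sequencing, per the labels' protocols. The sources used here do not state strandedness, so antisense overlaps cannot be resolved. Tools named in the submitters' processing notes, without their roles, are RSEM, HISAT2, edgeR, DESeq2, StringTie 1.3.1, Bowtie2 2.2.8 and fastp 0.18.0, with build mm10. The authors deposited FPKM values and expected counts; 6.596% of liver expected counts were at least 0.01 from a whole number. Counts were rounded, filtered (filterByExpr, minimum count 10, minimum total 15), scaled with TMM and tested with edgeR 4.0.16 in R 4.3.3 (glmQLFit, robust; glmQLFTest), with Benjamini-Hochberg adjustment over all genes at 0.05; SE is the fold change over the square root of F. The deposited FPKM values were used for limma 3.58.1 alternatives and levels per length; DESeq2 1.42.0 was another alternative. The fit was tested on simulated counts. Of 22298 identifiers, 22255 matched a GENCODE M21 symbol, whose coordinates are given. Members and lists were chosen with earlier results of these data known. Named genes are Bckdha, the called genes, the next 12 per direction with groups apart, and up to 5 members of each list by p; Orm2, Ngp, S100a8, Prtn3, Apoa4, Srsf7 and Tra2b were chosen after their values were seen. Some genes this rule names are not reported here.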

Additional observations from a re-analysis of the deposited data

How the results depend on the processing

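The 6 liver calls became 11 with no filter on low counts, 63 with DESeq2 and 39 with a replicate block, and all 6 were among each of these. The count was 0 with all 18 libraries in one fit (447 genes at an unadjusted p under 0.05) and 0 with limma on log2(FPKM + 1) without a filter on low values (900 at an unadjusted p under 0.05). It ranged from 0 to 25 when 1 liver library was left out: 0 without KO replicate 1, 2 without KO replicate 2, 2 without WT replicate 1, 11 without WT replicate 3 and 25 without WT replicate 2. Other scalings, limma-voom, a minimum absolute log2 fold change of 1 and the filtered FPKM fits gave 4 to 8. Deviations from the group mean correlated at 0.171, 0.153 and -0.239 between same-numbered KO and WT libraries. Between differently numbered ones they ran from -0.320 to 0.293. The labels do not state that same-numbered libraries are pairs, and these correlations cannot decide it. The block's count of 39 is therefore not read as a paired result. The cause of these shifts was not tested. The liver minus iWAT difference ranged from 0 to 1 call when 1 library was left out, and liver minus eWAT from 0 to 9. Of 99 genes tested for their direction, Bckdha turned to 0.023 with every FPKM fit and to 0.020 without KO replicate 3 (range without 1 library -0.196 to 0.020), and Uqcrq to 0.0090 without WT replicate 2 (range -0.73 to 0.0090). Of 44 list medians, 24 kept their sign in every alternative. FPKM with a pseudocount of 0.1 moved the median of all genes to 0.109. The depth limits genes near the filter, such as Hspa1a in WT livers.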
